A study of Mus musculus with 4 samples.

Results

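Respiratory complexes II, III, IV and V, together with cytochrome c, were represented by 48 of the 19938 genes that had a probe set of their own in this series. The members were the genes whose symbol in the platform annotation began with Uqcr, Cox4 to Cox8 or Atp5, or was Sdha, Sdhb, Sdhc, Sdhd, Cyc1 or Cycs. They comprised 4 genes of complex II, 9 of complex III, the cytochrome c gene, 17 of complex IV and 17 of complex V. Another 3 probe sets, annotated with a member symbol and a second symbol, were left out. The RNA of each sample was read on its own Affymetrix Mouse Gene 1.0 ST array, 4 in all, with 2 for control mice of genotype Mx1Cre-GABPa(FL/+) and 2 for Mx1Cre-GABPa(FL/-) mice, which the labels call GABPalpha-deficient. Controls thus kept 1 wild-type Gabpa allele beside the floxed one, whereas the other mice had a null allele in its place. All mice carried Mx1Cre, a recombinase transgene driven by an interferon-responsive promoter, and all received pIpC, a synthetic double-stranded RNA that induces it. The mice were 6 to 8 weeks old and had been backcrossed to C57/BL6 for 4 generations. RNA came from Flt3(-) LSK cells, the stem-cell-enriched marrow fraction without surface Flt3, sorted 4 days after the last pIpC dose. The labels do not say whether an array held RNA of 1 animal or of a pool, so the p-values describe only the scatter among these samples, which may be technical.

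These complexes carry electrons from metabolic fuels to oxygen and use the energy to make ATP. Complex II (succinate dehydrogenase) feeds electrons from the citric acid cycle into ubiquinone, complex III passes them to cytochrome c, complex IV (cytochrome c oxidase) hands them to oxygen, and complex V (ATP synthase) uses the resulting proton gradient. Complex II is encoded wholly in the nucleus, while complexes III to V each also hold subunits encoded by mitochondrial DNA, and 0 of the 13 mitochondrial genes listed were matched by symbol here. The protein made from Gabpa is the part of the factor GABP that contacts DNA. GABP belongs to the ETS family and was also studied, under the name nuclear respiratory factor 2, as an activator of cytochrome oxidase subunit genes. Quiescent blood stem cells are known to rely less on respiration than the progenitors they give rise to.

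ETS factors such as GABP bind sequences around a GGAA core, so the promoters of the members were searched for CCGGAAGT, and for its inner part CGGAAG, on both strands. The windows reached from 250 bases before to 50 after each RefSeq start site (mouse assembly GRCm38.p6), and 36 of the 48 members had at least 1 window. CCGGAAGT occurred in 4 of those 36 (11.1%), which were Uqcr11, Uqcrh, Cox8a and Atp5h. It occurred in 3.89% of all 32851 windows and, counted by gene as for the members, in 6.03% of the 15563 genes on the array with a window. Of the 679 of these genes with a mean log2 value of at least 10, the range in which most members lay, 13.3% held it. CGGAAG, which lies within CCGGAAGT, occurred in 20 of 36 members (55.6%) and in 16.9% of all windows. By gene, it occurred in 24.7% of the 15563 and in 48.6% of the 679. The palindrome CGCATGCG, the centre of the sequence bound by nuclear respiratory factor 1, occurred in 8 members (22.2%), against 1.87% of windows. By gene, the shares were 3.01% of the 15563 and 6.77% of the 679. A match describes the letters of a window and shows no binding. The stretches below run from position -80 to 10 relative to the start site, 5′ to 3′ on the gene's strand, with CCGGAAGT, CGGAAG or their reverse complements in capitals. The first 4 are the members with the longer sequence, Cox5b is a cytochrome oxidase gene known as a GABP target, and Atp5g1 is the member with the largest log2 difference, shown as one without a match.
Uqcr11, chr10:80406812-80406901, minus strand: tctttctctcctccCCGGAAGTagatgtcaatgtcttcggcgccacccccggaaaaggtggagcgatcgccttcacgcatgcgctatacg
Uqcrh, chr4:116075061-116075150, minus strand: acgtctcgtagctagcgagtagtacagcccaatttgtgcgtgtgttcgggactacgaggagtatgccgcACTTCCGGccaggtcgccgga
Cox8a, chr19:7217607-7217696, minus strand: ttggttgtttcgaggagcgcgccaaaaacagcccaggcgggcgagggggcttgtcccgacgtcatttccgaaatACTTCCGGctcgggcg
Atp5h, chr11:115419910-115419999, minus strand: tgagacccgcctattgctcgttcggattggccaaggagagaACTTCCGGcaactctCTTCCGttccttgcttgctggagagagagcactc
Cox5b, chr1:36691407-36691496, plus strand: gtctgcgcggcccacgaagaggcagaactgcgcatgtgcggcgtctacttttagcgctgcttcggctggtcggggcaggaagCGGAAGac
Atp5g1, chr11:96075622-96075711, minus strand: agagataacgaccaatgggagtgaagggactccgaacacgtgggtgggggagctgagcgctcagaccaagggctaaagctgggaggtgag

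Over all probe sets the correlation was 0.960 between the control arrays, 0.944 between the deficient arrays and 0.923 to 0.942 across the groups. Gabpa itself gave 8.43 and 7.28 in the controls against 6.43 and 7.85 in the arrays labelled deficient, so its probe set did not separate the groups. Whether that probe set lies inside the deleted part was not known here, so it may check nothing, and the groups are named by their labels. In limma's fit across all 35556 probe sets 0 passed an adjusted p under 0.05 (0%), and 1865 were lower and 2360 higher at an unadjusted p under 0.05. That split turned to 2349 lower and 1191 higher after cyclic loess between arrays, and to 2185 and 1537 after median centring of each array. No member passed the adjusted threshold, and their adjusted p ran from 0.387 to 0.945. All differences below are log2 values, deficient mean minus control mean, and SE stands for the standard error in limma's fit. Where a gene had several probe sets, the brightest on average stood for it.

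Most complex II to V genes read slightly higher in the arrays labelled deficient, and complex III genes showed the largest differences as a group. Of the 48 members, 43 had a difference above 0 and 5 below 0, with a median of 0.21. Over all genes the median was 0.16 and 67.6% lay above 0. Cyclic loess took the median of all probe sets from 0.15 to −0.0045 and that of the members from 0.21 to 0.19, and median centring took them to 0.065 and 0.13. Both deficient arrays exceeded both controls for 26 members, or 54.2%, where the share over all genes was 42.9%. Both lay below the controls for 2 members, Sdha and Cox7a1, against 15.2% of all genes. At an unadjusted p under 0.05, 4 members were higher (Uqcr11, Cox7a2, Uqcrc1 and Atp5g1), or 8.33%, against 6.99% of all genes. Sdha and Cox7a1 were lower, or 4.17%, against 6.36% of all genes. These last shares lay near the background and are no result about the members. Among the 38 members with a mean log2 value of at least 10, 57.9% stood above the controls without overlap and the median was 0.22. The 817 genes of that range had 30.8% and a median of 0.07. No test of that contrast was made.

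The size of the difference depended on which deficient array was read. Deficient replicate 1 was the highest of the 4 arrays for 38 of the 48 members (79.2%), against 33.3% of all genes and 51.3% of the genes with a mean of at least 10. It lay above deficient replicate 2 for 42 members (87.5%), against 47.45% of all genes. Set against the control mean, the 41 members other than tissue-restricted isoforms had a median of 0.38 in deficient replicate 1 and of 0.14 in deficient replicate 2. Without deficient replicate 1 the median difference of all members was 0.12 and 0 were higher at an unadjusted p under 0.05, when 1838 of all 35556 probe sets were. Without deficient replicate 2 it was 0.32, with 11 higher, when 2198 of all probe sets were. Leaving out control replicate 1 or 2 gave 0.21 and 0.22, with 0 members higher and 0 lower, when 714 and 1053 of all probe sets were higher and 1590 and 2295 lower. The plot of single members shows this spread.

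**Figure D1:**
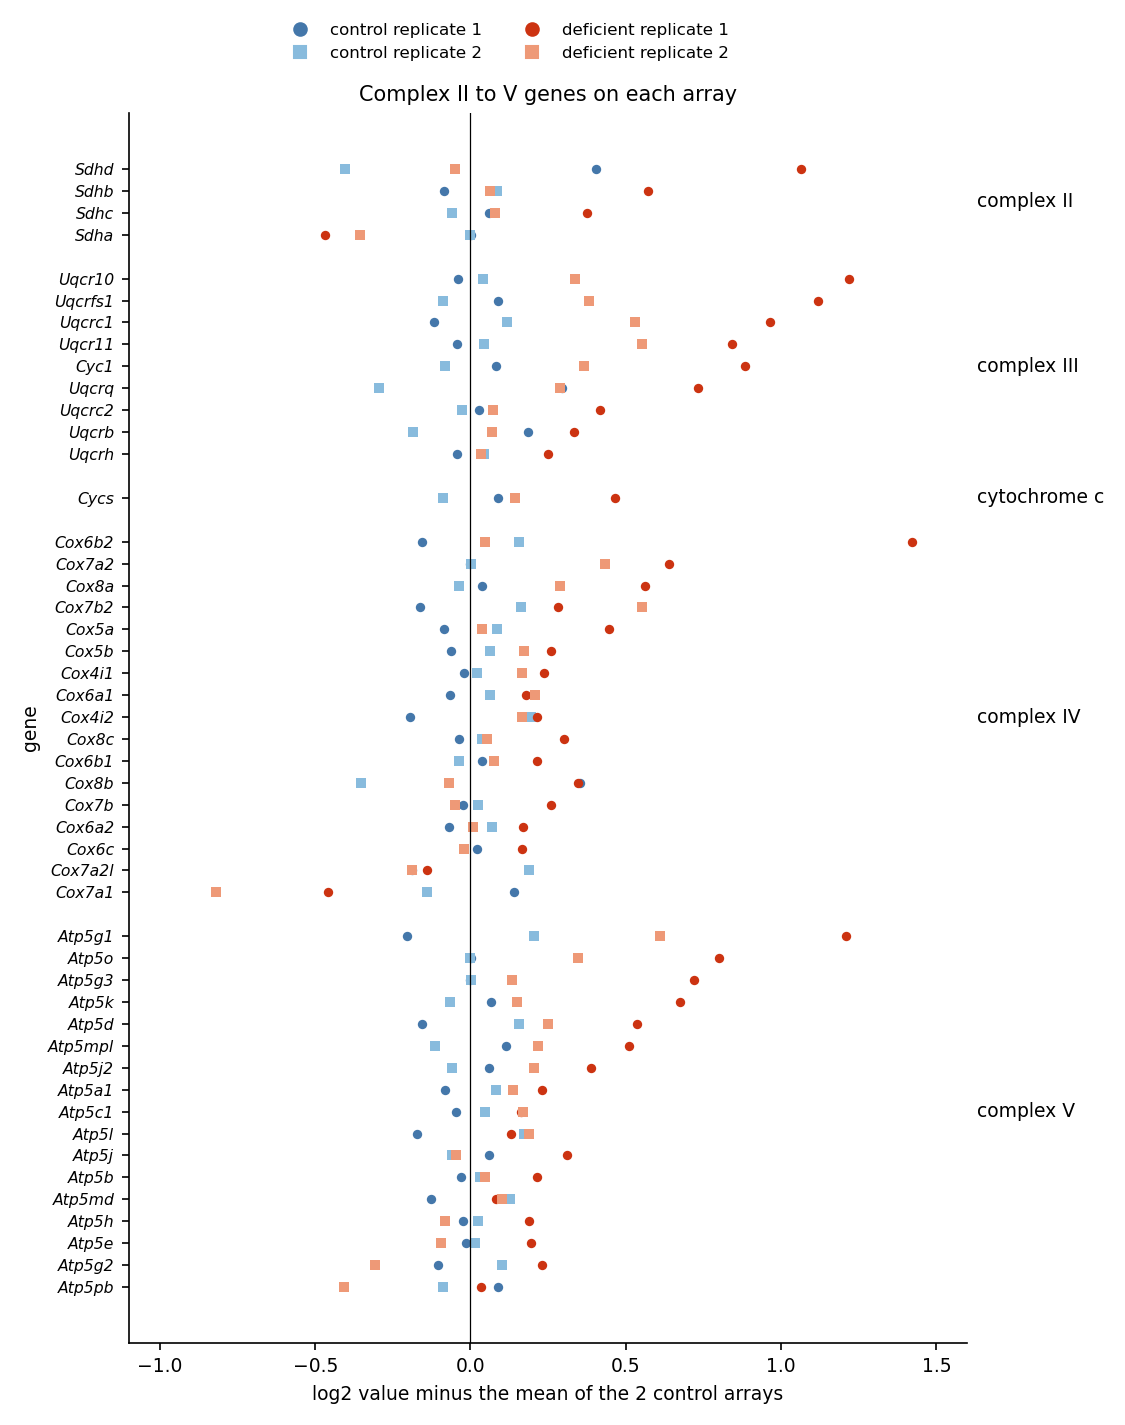
Each row is 1 gene of complexes II to V, and each point is 1 array, placed by its log2 value minus the mean of the 2 control arrays. Deficient replicate 1 (dark red) lies farthest to the right for 38 of the 48 genes, including all 9 of complex III. For Sdha and Cox7a1 both deficient arrays lie to the left of both controls.

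The 4 complex II genes did not share a direction. Sdha, the flavoprotein that oxidises succinate, gave 9.70 on both control arrays and 9.23 and 9.34 on the deficient arrays. Both deficient values lay below the controls, a log2 difference of −0.41 (SE 0.14, adjusted p = 0.415), and it stayed between −0.47 and −0.36 with any 1 array left out. Sdhb, the iron-sulfur subunit, gave 10.56 and 10.73 in controls and 11.22 and 10.71 in the deficient arrays, so only deficient replicate 1 stood higher (difference 0.32, SE 0.24). Sdhc and Sdhd are the membrane anchors that bind ubiquinone. The 4 values of Sdhc were 11.10 and 10.98 for the controls and 11.42 and 11.12 for the deficient arrays, which did not overlap (difference 0.23, SE 0.18). Sdhd varied most within groups, with 8.13 and 7.32 against 8.79 and 7.68 (difference 0.51, SE 0.52). The median of the complex was 0.27, and 0.0075 without deficient replicate 1.

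Complex III was the group in which every measured gene was higher on average. All 9 differences lay above 0, from 0.14 to 0.78, with a median of 0.62. The groups did not overlap for 6 of 9 genes, or 66.7%, against 42.9% of all genes, and deficient replicate 1 was the highest array for all 9. Without that array the median was 0.34, and without deficient replicate 2 it was 0.84. The 9 genes still all lay above 0 with any 1 array left out, and under cyclic loess and median centring. Whether complex III differed from the other complexes was not tested, and 2 arrays against 2 allow no two-sided exact permutation p below 0.333.

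The redox subunits of complex III come first. Cyc1, cytochrome c1, which hands electrons to cytochrome c, gave 10.69 and 10.53 in controls and 11.49 and 10.97 in the deficient arrays (difference 0.62, SE 0.24, adjusted p = 0.423). Uqcrfs1, the Rieske iron-sulfur protein, gave 9.09 and 8.92 against 10.12 and 9.39 (difference 0.75, SE 0.31, adjusted p = 0.426). Neither gene overlapped between groups, and in both the gap between the 2 deficient arrays was wider than that between the controls.

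Of the core proteins, which support the assembled complex, Uqcrc1 gave 9.58 and 9.82 against 10.66 and 10.23, 1.68-fold higher (difference 0.75, SE 0.22, adjusted p = 0.408). Its partner Uqcrc2 gave 10.28 and 10.23 against 10.67 and 10.33, a difference of only 0.24 (SE 0.18). Both were free of overlap, though deficient replicate 2 exceeded the nearest control of Uqcrc2 by little.

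Among the small subunits Uqcr11 had the smallest p of all 48 members. It gave 10.79 and 10.88 in controls and 11.67 and 11.39 in the deficient arrays, 1.62-fold higher (difference 0.70, SE 0.17, unadjusted p = 0.0175, adjusted p = 0.387). Its other probe set differed by 0.76 (SE 0.15), and its promoter is the one above with CCGGAAGT at −66 to −59 and CGCATGCG spanning the start site. Uqcr10 gave 9.88 and 9.96 against 11.14 and 10.26 (difference 0.78, SE 0.35). Uqcrq gave 10.95 and 10.36 against 11.39 and 10.94, with an overlap between control replicate 1 and deficient replicate 2 (difference 0.51, SE 0.30). Uqcrb, which lies near the ubiquinone site, and Uqcrh, the hinge protein that contacts cytochrome c1, differed by 0.20 and 0.14 with overlapping arrays. Other probe sets of Uqcrb differed by 0.16, with overlap, and by 0.32, without overlap. The Uqcrh window also holds CCGGAAGT.

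**Figure D2:**
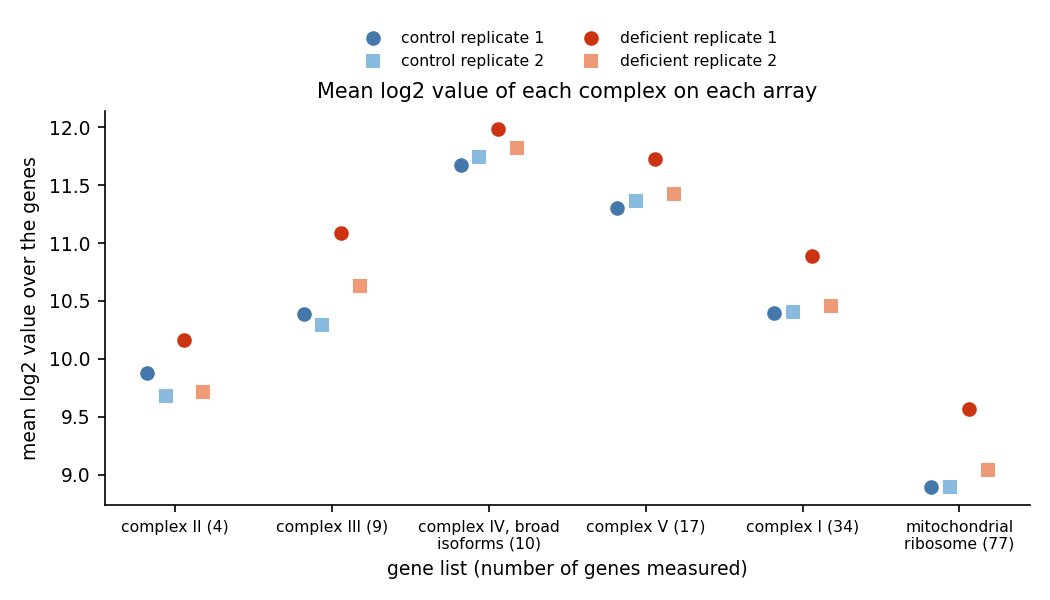
Mean log2 value over the genes of each list on each array, with the number of genes in brackets; the vertical axis does not start at 0, and heights of different lists are not comparable. Complex III stands at 10.39 and 10.29 on the control arrays and at 11.09 and 10.63 on the deficient arrays, and deficient replicate 1 is the highest array in all 6 lists.

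Cycs encodes cytochrome c, the mobile carrier between complexes III and IV, which also starts the caspase cascade when released. Its representative probe set gave 11.36 and 11.19 in controls and 11.74 and 11.42 in the deficient arrays, without overlap (difference 0.31, SE 0.19, adjusted p = 0.490). A second probe set differed by 0.26. The third, 10544687, gave 6.23 and 3.76 against 3.35 and 3.77, a difference of −1.43 (SE 0.92) set by control replicate 1 alone. The Cycs probe sets therefore disagreed in sign, and their average differed by −0.29. Cycs has many processed copies in mammalian genomes, and which locus each probe set reads was not known here.

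The 10 broadly expressed genes of complex IV gave small, mostly positive differences, with a median of 0.20 and 6 of 10 (60.0%) free of overlap upward. For the 7 isoforms of other tissues that count was 2 (28.6%), and for all genes the share was 42.9%. Over all 17 genes of the complex the median was 0.19, and 0.052 without deficient replicate 1. Cox4i1 and Cox5b, subunits whose genes are classical GABP targets, illustrate the size. Cox4i1 gave 12.26 and 12.30 in controls and 12.52 and 12.45 in the deficient arrays (difference 0.20, SE 0.14, adjusted p = 0.514). Cox5b gave 12.25 and 12.37 against 12.57 and 12.48 (difference 0.22, SE 0.15), and its other probe set 0.23. Neither gene was lower in the arrays labelled deficient, and both deficient arrays exceeded both controls.

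The largest difference among these 10 was that of Cox7a2, the broad isoform of a small subunit at the dimer interface. It gave 11.27 on both control arrays and 11.91 and 11.70 on the deficient arrays, 1.45-fold higher (difference 0.54, SE 0.15, unadjusted p = 0.0278, adjusted p = 0.407). Cox8a, a single-helix subunit with 2 CCGGAAGT matches in its window, gave 10.44 and 10.36 against 10.96 and 10.69 (difference 0.43, SE 0.17). Cox6a1, with 12.17 and 12.30 against 12.41 and 12.44, and Cox6b1, which faces the cytochrome c side, with 12.61 and 12.54 against 12.79 and 12.65, differed by 0.19 and 0.14. Cox5a, which binds a thyroid hormone metabolite, differed by 0.24, and Cox6c by 0.07, both with overlap. The other probe set of Cox6c differed by 0.08, without overlap. Cox7b gave 11.44 and 11.48 against 11.72 and 11.41 (difference 0.10, SE 0.18). Cox7a2l, a relative of Cox7a2 studied for a role in supercomplexes of complexes III and IV, was the exception in sign. It gave 10.97 and 11.35 against 11.02 and 10.97 (difference −0.16, SE 0.19), and its groups overlapped.

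The other 7 complex IV genes are isoforms known mainly from other tissues, grouped so after their values were seen. Cox7a1, the heart and muscle partner of Cox7a2, gave 6.32 and 6.04 in controls and 5.72 and 5.36 in the deficient arrays, lower on both (difference −0.64, SE 0.21, unadjusted p = 0.0430, adjusted p = 0.413). It thus differed in sign from Cox7a2, whose difference was 0.54; the difference between the 2 genes was not tested. Cox6a2, of heart and muscle, gave 6.72 and 6.86 against 6.96 and 6.79, and Cox8b, also of muscle, 5.71 and 5.01 against 5.71 and 5.29, both with overlap. Cox4i2, a hypoxia-responsive form of lung, gave 6.10 and 6.49 against 6.51 and 6.46.

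Of the testis forms, Cox8c gave 5.50 and 5.58 against 5.84 and 5.59, and Cox7b2 4.38 and 4.70 against 4.82 and 5.09 (difference 0.42, SE 0.20). Cox6b2 behaved unlike them. Its probe set gave 9.97 and 10.29 in controls and 11.55 and 10.18 in the deficient arrays, so deficient replicate 1 alone stood out (difference 0.73, SE 0.53, adjusted p = 0.525), and without that array the difference was 0.05. No detection calls were used here, so whether the low values of the other 6 isoforms exceed background was not tested.

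Complex V genes had a median difference of 0.17, with 15 of 17 above 0 and 10 of 17 (58.8%) free of overlap upward. Over all genes the median was 0.16 and that share 42.9%. Among genes with a mean of at least 10, the range of 16 of the 17, they were 0.07 and 30.8%. Neither contrast was tested. The 5 genes of the catalytic head differed by 0.05 to 0.39. Atp5b, the catalytic beta subunit, gave 11.88 and 11.94 in controls and 12.13 and 11.96 in the deficient arrays (difference 0.13, SE 0.15). Atp5a1, the alpha subunit, gave 11.44 and 11.60 against 11.75 and 11.66 (difference 0.18, SE 0.15). Atp5c1, the gamma subunit of the rotor, differed by 0.17 and Atp5e by 0.05, while Atp5d, the delta subunit, gave 9.93 and 10.24 against 10.62 and 10.33 (difference 0.39, SE 0.20). Of these 5 genes only Atp5e overlapped between groups.

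Atp5g1, Atp5g2 and Atp5g3 encode the same mature c subunit, the proton-carrying ring, and differ in their import sequences. Atp5g1 gave 9.18 and 9.58 in controls and 10.59 and 9.99 in the deficient arrays, 1.88-fold higher and the largest difference of any member (0.91, SE 0.30, unadjusted p = 0.0395, adjusted p = 0.410). Its second probe set differed by 1.08 (SE 0.42). Atp5g3 gave 11.47 on both control arrays and 12.19 and 11.61 on the deficient arrays (difference 0.43, SE 0.25). Atp5g2 gave 11.44 and 11.64 against 11.77 and 11.23, with a difference of −0.04 (SE 0.25). The 3 probe sets of Atp5g2 ran from −0.04 to 0.05, on both sides of 0. The differences of the 3 genes thus ranged from −0.04 to 0.91, though their contrast was not tested. Without deficient replicate 1, Atp5g1 differed by 0.61 and Atp5g3 by 0.13.

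In the peripheral stalk, which holds the head still, Atp5o, the oligomycin-sensitivity protein, gave 10.97 and 10.96 in controls and 11.77 and 11.31 in the deficient arrays (difference 0.57, SE 0.21, adjusted p = 0.421). Atp5h and Atp5j differed by 0.05 and 0.13 with overlap. The Atp5h window holds CCGGAAGT and a second CGGAAG. Atp5pb gave 10.40 and 10.22 against 10.35 and 9.91 (difference −0.19, SE 0.22). The small membrane subunits differed by 0.09 (Atp5md), 0.16 (Atp5l), 0.30 (Atp5j2), 0.36 (Atp5mpl) and 0.41 (Atp5k). Of these, Atp5mpl gave 11.85 and 11.62 against 12.25 and 11.95, without overlap (SE 0.19). For Atp5j2 and Atp5k the groups did not overlap either, whereas for Atp5md and the representative probe set of Atp5l they did. All 6 probe sets of Atp5l lay between 0.16 and 0.36. In all but the representative, both deficient arrays lay above both controls, as in 42.9% of all genes.

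Read by promoter sequence, the 4 members with CCGGAAGT had a median difference of 0.28 and the other 32 a median of 0.23. With the shorter CGGAAG the order turned, to 0.18 for the 20 members with it and 0.41 for the 16 without. Over all genes on the array with a window, those with CCGGAAGT had a median of 0.04 and those without 0.16. Among the 679 of them with a mean of at least 10 the order was the other way, 0.16 with it and 0.05 without. The medians of members with and without a match therefore depended on the sequence searched, and no ordering of them was tested.

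Assembly factors build these complexes without being part of them. Of 37 listed, 33 were measured, 24 above 0 (72.7%, against 67.6% of all genes) and 9 below, with a median of 0.24. At an unadjusted p under 0.05, 4 were higher (12.1%, against 6.99% of all genes) and 0 lower, against 6.36%. Without deficient replicate 1 that median turned to −0.11. Cox17, the copper chaperone of complex IV, gave 11.41 and 11.06 in controls and 11.98 and 11.82 in the deficient arrays (difference 0.67, SE 0.19, adjusted p = 0.407). Cox11, which inserts copper, differed by 0.80 (SE 0.28) and Sdhaf4, a complex II factor, by 0.84 (SE 0.26), both without overlap. Lyrm7, which hands over the Rieske protein, had low values without overlap, 4.79 and 4.75 against 5.22 on both deficient arrays. Its difference was 0.45 (SE 0.14), and whether its signal exceeds background was not tested. Sco1, another copper factor, gave 7.15 and 7.93 against 7.80 and 6.09. Lrpprc, which stabilises mitochondrial messenger RNA, gave 8.67 and 8.19 against 6.75 and 8.56. In Lrpprc and Sco1 the 2 deficient arrays lay on different sides of at least 1 control. Both deficient arrays lay above both controls for 10 of the 33 factors (30.3%), against 42.9% of all genes. Both lay below for 3 of the 33, against 15.2% of all genes. These 3 were Coa6, a complex IV factor (difference −0.57), Tmem70, which serves ATP synthase (−0.33), and Taco1, a translational activator of a complex IV subunit (−0.23). Of 4 further genes, Atpif1, the inhibitor of ATP synthase, differed by 0.21, Ndufa4, a complex IV subunit named for complex I, by 0.07, and the hypoxia-induced Higd1a and its relative Higd2a by 0.44 and 0.13. Hccs, which attaches heme to cytochrome c, gave 8.27 and 5.77 against 5.66 and 6.01, so control replicate 1 alone was high.

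Complex I genes, the part of the chain before complex III, had a median of 0.26 over 34 measured, with 32 above 0. Their share free of overlap upward was 41.2%, against 42.9% of all genes. Among genes with a mean of at least 10, which 24 of the 34 had, that share was 30.8%. At an unadjusted p under 0.05, 0 of the complex I genes were higher, against 6.99% of all genes. Deficient replicate 1 was their highest array for 29 of 34. Mitochondrial ribosomal protein genes had a median of 0.38 over 77, with deficient replicate 1 the highest for 62. Of the 77, 48.1% were free of overlap upward, against 42.9% of all genes. At an unadjusted p under 0.05, 15 (19.5%) were higher, against 6.99% of all genes. The complex III median of 0.62 was the largest of these lists.

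Larger differences came mostly from members with weaker signal, tissue isoforms left aside. The 7 tissue isoforms, grouped after their values were seen, had a median level of 5.86 and a median difference of only 0.18. Among the 41 members other than tissue isoforms, the 8 with a mean of at least 12 differed by 0.07 to 0.30, the 18 between 11 and 12 had a median of 0.17, and the 15 below 11 had a median of 0.43. The rank correlation of difference with mean signal was −0.39 across these 41 genes, which share the same 4 arrays. Across the 1708 genes with a mean of at least 9 it was 0.05. Most complex III genes had a mean below 11, so signal and complex overlapped among the members. Members also have short genes, with a median span of 6.58 kb against 17.7 kb for all genes. The 25% of genes with the shortest span had a median difference of 0.23 and the 25% with the longest 0.08. The shortest genes were dim, however, with a median level of 5.79 against 11.2 for the members. The rank correlation of difference with span was −0.22 over 19856 genes and −0.18 over the 48 members. The part of signal strength and gene span in the members' differences was not tested.

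**Figure D3:**
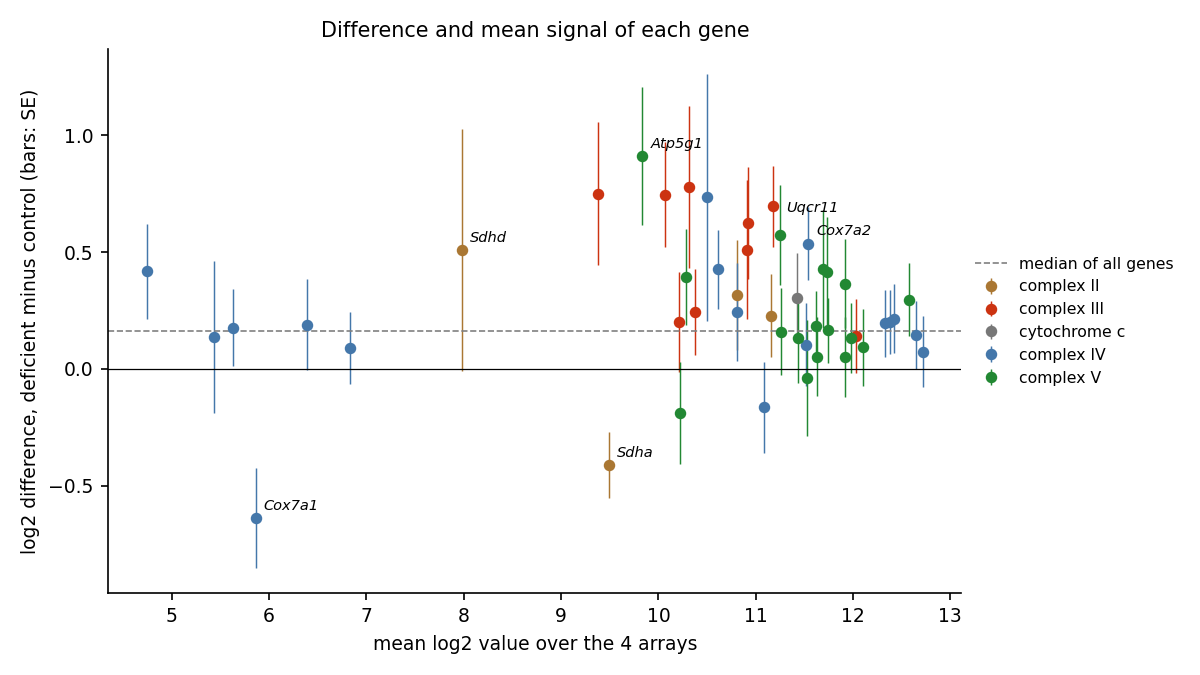
Log2 difference of each gene (deficient minus control, bars: SE) against its mean log2 value over the 4 arrays, coloured by complex; the dashed line is the median of all genes, 0.16. The brightest genes lie close to that line, complex III genes reach from 0.14 to 0.78, and Sdha and Cox7a1 lie farthest below 0.

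Markers of other cell types also differed between these arrays. Over all genes 67.6% lay above 0 and 42.9% were higher without overlap, and for genes with a mean under 7, where many markers lie, 76.6% and 51.4%. Erythroid precursors are rich in mitochondria, and of 23 erythroid markers 14 were measured, all above 0, 12 without overlap, with list means of 7.20 to 7.22 in controls and 8.67 to 9.27 in the deficient arrays. All 16 measured macrophage markers were above 0, 13 without overlap, with means of 5.93 to 6.03 and 6.63 to 7.25. The erythroid mean was highest in deficient replicate 2, though the list was split, with 8 genes highest in deficient replicate 2 and 6 in deficient replicate 1. Epor, the erythropoietin receptor, gave 9.67 in deficient replicate 1 and 8.58 in deficient replicate 2, whereas Slc4a1, the red cell anion exchanger, gave 6.89 and 10.004. The macrophage, stromal and granulocyte means, like that of the members, were highest in deficient replicate 1. Gene by gene, deficient replicate 1 was highest for 13 of 16 macrophage, 5 of 11 stromal and 3 of 13 granulocyte markers. Deficient replicate 2 was highest for 3, 4 and 7 of them. C1qc, a complement component of macrophages, gave 8.90 in deficient replicate 1 and 6.28 in deficient replicate 2, the latter below both controls. Stromal and endothelial markers had means of 6.14 to 6.15 and 6.78 to 7.04, with 8 of 11 above 0. Granulocyte markers had 8.07 to 8.40 and 8.46 to 8.63, with 9 of 13 above 0.

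B and plasma cell markers had means of 6.49 to 6.58 in controls and 6.97 to 7.37 in the deficient arrays, with 8 of 9 above 0. T and NK markers had 5.81 on both control arrays and 5.88 to 6.20 in the deficient arrays, with 7 of 9 above 0. In the opposite direction, megakaryocyte markers had 8.46 to 8.56 and 6.96 to 7.56, and genes of the sorting gate and of stem cells 7.99 to 8.19 and 6.62 to 6.79. Of the latter, 1 of 10 was above 0. Kit, the receptor on which the cells were sorted, gave 10.21 on both control arrays and 7.70 and 8.50 on the deficient arrays, and Flt3, whose protein the gate excluded, 8.43 and 9.26 against 5.68 and 5.95. In bulk RNA a different mix of cells and a different amount of RNA per cell cannot be told apart, and the part of these cell types in the differences of the respiratory genes was not tested.

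**Figure D4:**
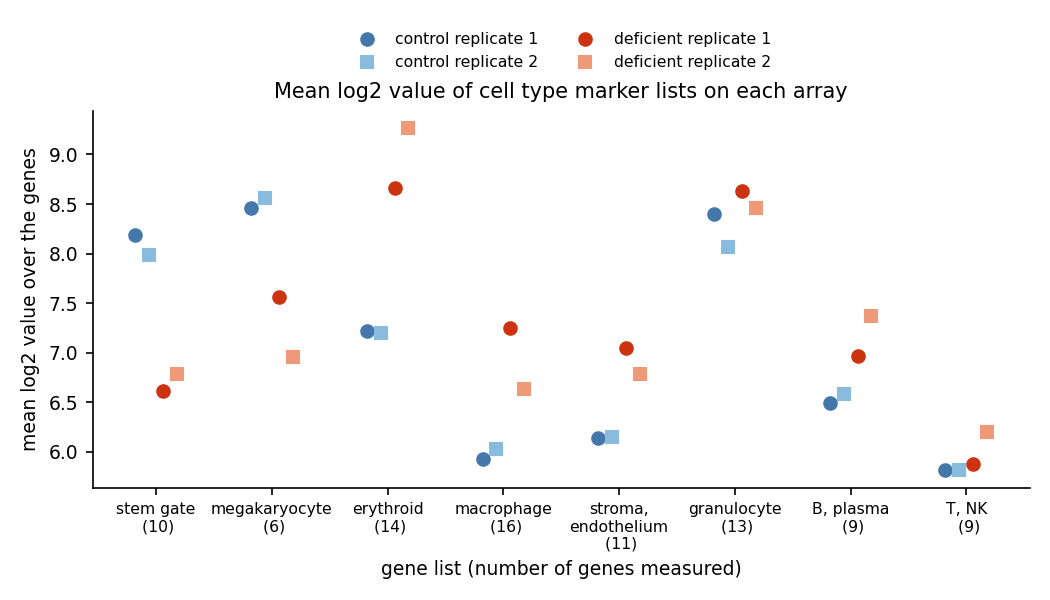
Mean log2 value of each cell type marker list on each array, with the number of genes measured in brackets; the vertical axis does not start at 0. The stem gate and megakaryocyte lists are lower on both deficient arrays than on both controls. All other lists are higher, the granulocyte list and the T and NK list by little on 1 of the deficient arrays.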

How the data were processed

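Per the file, the deposited table held a log2 value for every probe set of every array, from 1.98 to 13.7. RMA and Partek appear, with no version, in the submitters' processing notes. The sources used here give neither build nor annotation, and 0 value columns were unmatched. Probe sets were named from the platform annotation, with 21789 carrying 1 symbol, 1621 several and 12146 none. Genes were kept at their brightest probe set. Limma 3.58.1 in R 4.3.3 fitted genotype alone, with Benjamini-Hochberg adjustment over 35556 probe sets. The fit was tested on simulated data. Figures used matplotlib 3.10.9. Promoter windows came from RefSeq (GRCm38.p6).

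The members, lists and tests were chosen with earlier results of these data known. Per-array values were given by rule for up to 4 members of each complex with the smallest p, the catalytic and cofactor-bearing subunits, Cox4i1, Cox5b, isoform sets, members whose probe sets disagree, Gabpa, Kit, Flt3 and up to 4 assembly factors; Uqcr10, Uqcrc2, Uqcrq, Atp5pb, Sco1, Lrpprc, Hccs, Epor, Slc4a1 and C1qc were added after their values were seen. Alternatives were a replicate block, cyclic loess, median centring, a filter on dim probe sets, an intensity trend, averaged probe sets and leaving out each array. Same-numbered arrays share only a number. Precision is limited by the 2 arrays per group, and array values carry no read depth.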

Additional observations from a re-analysis of the deposited data

How the results depend on the processing

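With 2 arrays a group, limma called 0 probe sets at an adjusted p under 0.05 under the replicate block, cyclic loess, median centring, the filter on dim probe sets, the intensity trend and with each array left out. Averaging probe sets was run for genes only and gave no such count. Of 48 members, 32 kept the sign of their difference under all alternatives and 16 did not, and the cause was not tested. Same-numbered arrays deviated from their group means with a correlation of −0.088 over all probe sets and 0.306 over the members, with only 2 pairs. With the replicate number as a replicate block, 1341 probe sets were higher at an unadjusted p under 0.05, against 2360 without it, and 1 member was higher and 1 lower, against 4 and 2. The number of higher probe sets was 1191 after cyclic loess, 1537 after median centring, 964 among probe sets above the median of mean level, a smaller number tested, and 714 (without control replicate 1) to 2198 with 1 array left out. Among the members, 1 was higher after median centring and 0 to 11 with 1 array left out. Lower members numbered 1 after cyclic loess, 1 with an intensity trend, 0 among those brighter probe sets, 1 without the tissue isoforms (an alternative chosen after seeing the data) and 0 to 1 with 1 array left out. The median differences then ran from −0.11 to 0.42 for assembly factors, 0.0075 to 0.47 for complex II, 0.34 to 0.84 for complex III and 0.052 to 0.26 for complex IV, each lowest without deficient replicate 1. The promoter split of medians, 0.055 with CCGGAAGT, was −0.22 with CGGAAG. Median centring turned Atp5e to −0.031, Atp5h to −0.028 and Cox6c to −0.0072. Cyclic loess turned Cox6a2 to −0.018, Cox8b to −0.084 and Cox8c to −0.041, and averaging probe sets turned Cycs to −0.29. With 1 array left out, the range was −0.096 to 0.20 for Atp5e, −0.31 to 0.23 for Atp5g2, −0.083 to 0.19 for Atp5h, −0.045 to 0.31 for Atp5j, −0.014 to 0.33 for Atp5l, −0.035 to 0.22 for Atp5md and −0.41 to 0.033 for Atp5pb. It was −0.0035 to 0.38 for Cox4i2, −0.020 to 0.17 for Cox6c, −0.35 to 0.025 for Cox7a2l, −0.052 to 0.26 for Cox7b, −0.21 to 0.49 for Cox8b and −0.049 to 1.06 for Sdhd. A lone array was assumed to vary like the other group. No detection calls were used, so signal over background was not assessed.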
